A study of Mus musculus with 8 samples.

Results

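The 10 genes described here encode the myosin of the early heart and a kinase that acts on it: the heavy chains Myh6, Myh7 and Myh7b, the essential light chains Myl4, Myl3 and Myl1, the regulatory light chains Myl7, Myl2 and Myl9, and the cardiac myosin light chain kinase Mylk3. They were taken by gene symbol from the 49315 genes of the count table, and all 10 were found. RNA sequencing was done on hearts dissected from C57BL/6 mouse embryos at embryonic day 9.5, with 4 Male and 4 Female libraries; no group was treated or mutant, and sex was called by Sry genotyping of other tissue of the same embryos. The study asked how male and female hearts differ; the levels, isoform ratios and covariation below are given first over the 8 libraries as 1 set. Whether 1 heart or a pool went into a library is not labelled, so p-values measure the spread between libraries.

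A cardiac myosin molecule is a pair of heavy chains, each carrying the ATP-splitting motor head, with an essential and a regulatory light chain wrapped around each neck. In the mouse heart the heavy chains alpha (Myh6) and beta (Myh7) differ in speed, and their balance shifts during development, from mainly beta in the embryonic ventricle to alpha in the adult. The early heart tube also makes light chains that are known as the atrial (Myl4, Myl7) or the ventricular (Myl2, Myl3) forms of the later heart.

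Each of the 3 heavy chain genes carries a microRNA in an intron, and these are shown because they tie the heavy chain genes into a family by sequence. Mir208a lies in intron 29 of Myh6, Mir208b in intron 31 of Myh7 and Mir499 in intron 19 of Myh7b, counted along the principal GENCODE transcript. The mature arms below are from RefSeq (GRCm38.p6), written 5′ to 3′, with the seed, bases 2 to 8, in capitals.
mmu-miR-208a-3p (chr14:54949072-54949093, minus strand): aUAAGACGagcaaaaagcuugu
mmu-miR-208b-3p (chr14:54975710-54975731, minus strand): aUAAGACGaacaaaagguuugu
mmu-miR-499-5p (chr2:155622893-155622913, plus strand): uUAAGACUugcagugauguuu
The arms from Myh6 and Myh7 shared the whole seed and differed at 3 of 22 bases, G10A, A16G and C18U, counted from the 5′ end with the miR-208a-3p base first. Over its first 8 bases miR-499-5p differed from miR-208a-3p at A1U and G8U. Mature microRNAs were not measured by these libraries. Reads assigned to the hairpin genes numbered 4 to 21 per library for Mir208a, 7 to 44 for Mir208b and 0 in all 8 libraries for Mir499.

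The promoters of Myl7, Myl3 and Myl9 are shown because these light chains were the members with a CArG box, the binding sequence of the serum response factor SRF. Across libraries (below) Pearson r was 0.967 for Myl3 with Myl7, 0.958 for Myl3 with Myl9 and 0.955 for Myl7 with Myl9. Between a light chain with a box and 1 without, r was 0.978 for Myl4 with Myl7, 0.955 for Myl2 with Myl9 and 0.601 for Myl1 with Myl3. Among light chains with no box in their windows, r was 0.850 for Myl2 with Myl4 (rho = 0.619), 0.760 for Myl1 with Myl2 and 0.536 for Myl1 with Myl4. A part of SRF in this was not tested. Each stretch is the 250 bases before the RefSeq start (GRCm38.p6), 5′ to 3′ along the gene's strand, with the CArG box in capitals.
Myl7 (chr11:5898783-5899032, minus strand): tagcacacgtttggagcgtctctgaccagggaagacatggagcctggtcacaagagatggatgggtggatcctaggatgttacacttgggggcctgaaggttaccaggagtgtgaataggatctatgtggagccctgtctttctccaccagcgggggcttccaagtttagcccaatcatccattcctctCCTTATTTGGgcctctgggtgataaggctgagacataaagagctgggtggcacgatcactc
Myl3 (chr9:110763428-110763677, plus strand): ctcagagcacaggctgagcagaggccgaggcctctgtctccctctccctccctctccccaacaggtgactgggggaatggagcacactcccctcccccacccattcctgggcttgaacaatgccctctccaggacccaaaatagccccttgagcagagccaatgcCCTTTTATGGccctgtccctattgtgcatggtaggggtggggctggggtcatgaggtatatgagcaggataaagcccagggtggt
Myl9 (chr2:156775214-156775463, plus strand): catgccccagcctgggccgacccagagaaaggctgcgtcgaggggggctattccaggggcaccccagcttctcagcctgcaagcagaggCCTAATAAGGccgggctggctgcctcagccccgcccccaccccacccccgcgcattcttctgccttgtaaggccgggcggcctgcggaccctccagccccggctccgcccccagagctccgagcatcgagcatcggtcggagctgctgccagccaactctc
Counted from the start, the box lay at positions -61 to -52 in Myl7, -85 to -76 in Myl3 and -161 to -152 in Myl9. All 10 members had a window, 13 windows in all, and 3 of the 10 held a CArG box on either strand, against 1.47% of 32851 RefSeq windows of that length. A MEF2 site was in none of the members' windows and in 2.92% of all windows. Of shorter motifs searched on both strands, CATTCC (the site of TEAD factors) was in windows of 6 members and 12.6% of all windows, GATAA (GATA factors) in 5 and 22.6%, and AAGTG (NKX2-5) in 6 and 40.7%. No CArG box overlapped a match of another motif searched. Only 7 members had a window within 100 bases of the start of the principal GENCODE transcript, and the windows of Myl1, Myl2 and Myl4 lay far from it. A match is a run of letters in a window and no measure of binding.

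Sequencing gave 20105913 to 51134291 counts per library. The 10 genes took 2.89% to 4.24% of all counts in Male libraries and 2.65% to 3.21% in Female libraries, with 2038 to 402336 counts per gene and library. Male replicate 2 stood apart on the first principal component, which held 62.0% of the variance: it scored 59.5, and the others -35.0 to 15.0. It also had the lowest mitochondrial share of counts, 0.707%, against up to 1.72% in Female replicate 4. Results that rest on Male replicate 2 are given with and without it. The heart label was checked with 11 cardiomyocyte genes other than myosin, such as Actc1 and Tnnt2: all 11 had at least 1 CPM (counts scaled to the library total with TMM factors) in every library, and their sum was 27126 to 35121 CPM in Male and 26023 to 31567 CPM in Female libraries. All 8 atrial and sinus venosus genes and all 7 ventricular genes reached 1 CPM in every library too. Markers of other tissues were also found, and 6 erythroid genes summed to 4334 to 11383 CPM. For 6 hepatic genes the sum was 1.09 to 27.3 CPM in Male and 0.640 to 70.02 CPM in Female libraries. It was 148 to 353 CPM for 10 foregut and pharyngeal epithelium genes and 160 to 210 CPM for 7 epicardial and proepicardial genes. Both of these sums were highest in Male replicate 2. The part of these tissues in the myosin levels was not tested.

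Among the heavy chains, Myh6 and Myh7 were abundant and close to each other, and Myh7b was a small fraction. In bulk tissue a lower level may reflect fewer cells of a type or less RNA per cell, which cannot be told apart. Myh6 (ENSMUSG00000040752, chr14:54941981-54966927, minus strand) had 7417, 9709, 5573 and 7551 CPM in Male replicates 1 to 4 and 5447, 6197, 5889 and 5327 CPM in Female replicates 1 to 4. Its neighbour Myh7 (ENSMUSG00000053093, chr14:54970688-54994634, minus strand) had 7078, 8860, 5910 and 7307 CPM in Male and 4543, 5849, 5960 and 4900 CPM in Female libraries. Male replicate 2 was the highest library for both genes, and the ranges of the sexes overlapped for both. Myh7b (ENSMUSG00000074652, chr2:155611212-155634307, plus strand), a slow and tonic muscle heavy chain, had 144.9, 142.1, 111.9 and 144.8 CPM in Male and 98.0, 107.0, 103.3 and 99.9 CPM in Female libraries. All Male libraries lay above all Female libraries for Myh7b, and Male replicate 3 was well below the other 3 Male libraries.

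Of the essential light chains, the embryonic and atrial form Myl4 (ENSMUSG00000061086, chr11:104550663-104595753, plus strand) had 4644, 7847, 4410 and 5413 CPM in Male and 5511, 5549, 5655 and 3913 CPM in Female libraries. Myl3 (ENSMUSG00000059741, chr9:110741861-110769798, plus strand), the ventricular and slow skeletal form, had 2332, 4526, 2380 and 2854 CPM in Male and 2632, 2711, 2879 and 2011 CPM in Female libraries. Both genes had the same extremes, Male replicate 2 at the top and Female replicate 4 at the bottom. Myl1 (ENSMUSG00000061816, chr1:66924295-66945404, minus strand), best known from fast skeletal muscle, had 403, 448, 391 and 455 CPM in Male and 333, 432, 407 and 352 CPM in Female libraries. Myl1 had an SD of 0.16 on the log2 CPM scale both over 8 libraries, where it was the lowest of the 10 genes, and without Male replicate 2, where Myl2 (0.12) and Myl9 (0.15) were lower. Its highest library was Male replicate 4 and its lowest Female replicate 1.

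Of the regulatory light chains, Myl7 (ENSMUSG00000020469, chr11:5896637-5898782, minus strand), the atrial form that marks the whole early heart tube, had 5944, 11724, 4900 and 7071 CPM in Male and 6174, 7271, 7316 and 4443 CPM in Female libraries. The ventricular form Myl2 (ENSMUSG00000013936, chr5:122100951-122113472, plus strand) had 2361, 3411, 2527 and 2857 CPM in Male and 2335, 2522, 2672 and 2234 CPM in Female libraries. Myl7 varied most of the 10 genes, 2.64-fold between Male replicate 2 and Female replicate 4, and 1.65-fold without Male replicate 2. Myl9 (ENSMUSG00000067818, chr2:156775420-156781658, plus strand), the smooth muscle and non-muscle form, had 1434, 2377, 1394 and 1665 CPM in Male and 1349, 1652, 1620 and 1278 CPM in Female libraries. Beside it, 6 smooth muscle markers summed to 4705 to 6068 CPM in Male and 4728 to 5895 CPM in Female libraries, with the highest sum in Male replicate 2, and their part in the Myl9 level was not tested.

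Mylk3 (ENSMUSG00000031698, chr8:85324303-85386345, minus strand), the kinase that phosphorylates the cardiac regulatory light chain, had 210.1, 128.5, 231.6 and 189.4 CPM in Male and 169.7, 202.5, 181.0 and 235.0 CPM in Female libraries. Male replicate 2 was its lowest library and Female replicate 4 its highest. This was the reverse of Myh6, Myl2, Myl3, Myl4, Myl7 and Myl9 but not of Myh7, Myh7b or Myl1. Over the 8 libraries the SD of log2 CPM was 0.43 for Myl7, 0.34 for Myl3, 0.31 for Myh7, 0.30 for Myh6 and for Myl4, 0.28 for Myl9 and for Mylk3, 0.25 for Myh7b and 0.20 for Myl2, against a median of 0.21 over the 16377 genes tested. Without Male replicate 2 these SDs were 0.29 for Myl7, 0.19 for Myl3 and 0.12 for Myl2, against a median of 0.16.

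**Figure D1:**
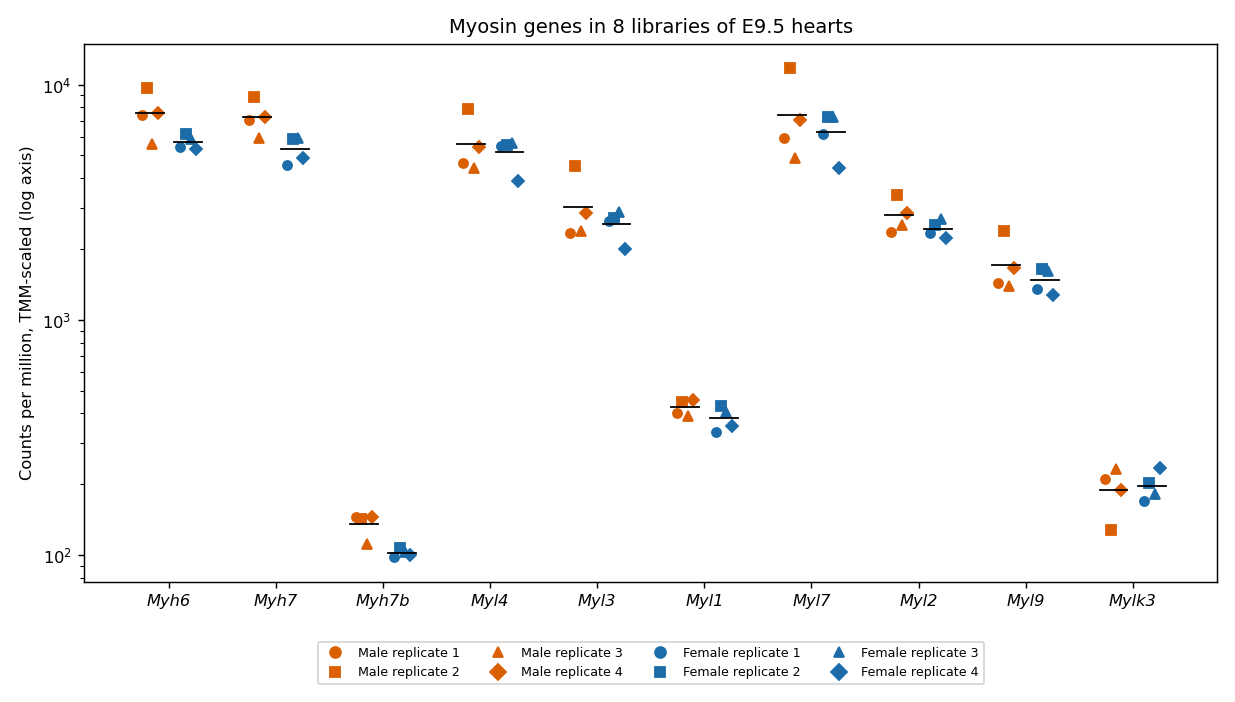
TMM-scaled CPM (log axis) of the 10 myosin genes in each library, Male left and Female right for each gene, with symbols for replicates and a line at each sex's mean. The square of Male replicate 2 is the highest point for 7 genes and the lowest for Mylk3, and Myh7b is the gene whose sexes do not overlap.

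Per length of all annotated exons, Myl7 stood far above the rest. Its mean level was 11619 ± 3794 CPM per kilobase (RPKM; SD, n = 8 for this and the following levels), and its lowest library, 7530 RPKM, lay above the highest library of Myl9, 2045 RPKM. On this scale Myl7 ranked 2 among the 16377 genes tested. There followed Myl9 at 1373 ± 299 RPKM, Myl3 at 1365 ± 372 RPKM, Myl2 at 1341 ± 194 RPKM, Myl4 at 1158 ± 256 RPKM and Myh6 at 1046 ± 237 RPKM. The ranges of these 5 genes overlapped from each neighbour to the next. Myl9 was above Myl3 in 5 of 8 libraries and Myl3 above Myl2 in 4 of 8, so that this part of the order was not stable. Myl2 was above Myl4 in 8 of 8 libraries and Myl4 above Myh6 in 6 of 8. Myh7 averaged 734 ± 163 RPKM and was below Myh6 in 8 of 8 libraries. Myl1 at 194 ± 20.9 RPKM, Mylk3 at 45.2 ± 8.14 RPKM and Myh7b at 17.9 ± 3.18 RPKM came last, with ranges that did not overlap.

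The order depended on which length a gene was given. The deposited length joins the exons of all annotated transcripts, which makes it 4637 bases for Myl4, against 943 bases for the principal transcript; for Myl3 the lengths were 2044 and 937 bases, for Myl2 1950 and 889, for Myl1 2074 and 803, and for Myl7 590 on both. On principal transcripts Myl4 averaged 5692 ± 1258 RPKM, Myl3 2978 ± 811 RPKM and Myl2 2941 ± 425 RPKM, above Myl9 at 1415 ± 308 RPKM. On that scale Myh6 averaged 1086 ± 247 RPKM and Myh7 1011 ± 224 RPKM. Myl7 was the highest member on both scales. Which transcripts these hearts use was not measured by counts per gene.

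**Figure D2:**
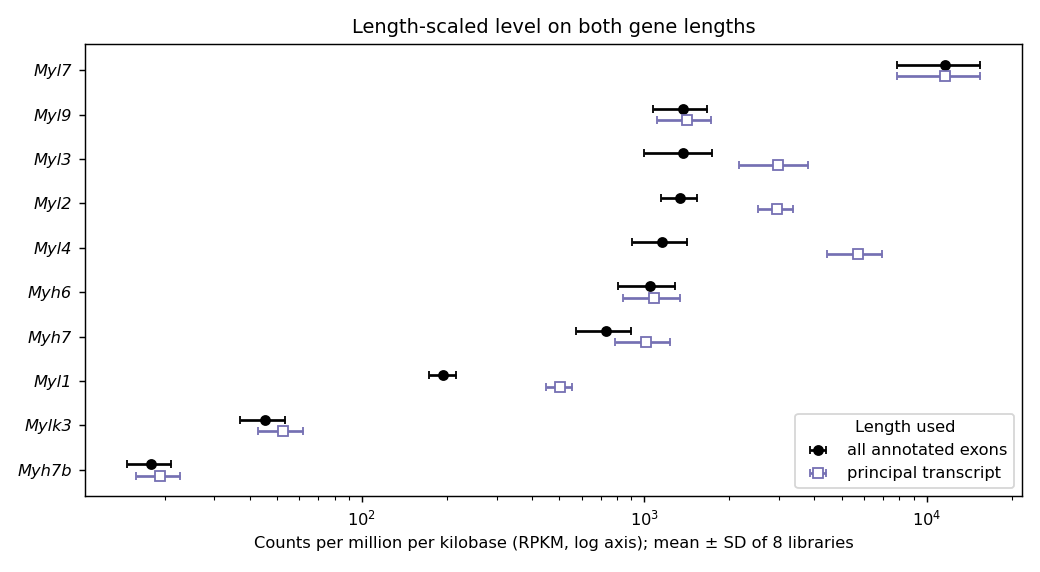
Mean level of each gene in CPM per kilobase (RPKM, log axis) with SD bars over the 8 libraries, filled circles for the length of all annotated exons and open squares for the principal transcript. Myl7 leads at 11619 RPKM on both lengths, and Myl4 is at 5692 RPKM on the principal transcript and 1158 RPKM on all exons.

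Isoform shares were close to constant across the 8 libraries for the heavy chains. On exon length, Myh6 made up 58.2 ± 1.72% of the summed heavy chain RPKM (SD, n = 8), Myh7 40.8 ± 1.71% and Myh7b 1.01 ± 0.0872%. On principal length the shares were 51.3 ± 1.77% for Myh6 and 47.8 ± 1.77% for Myh7, and as plain reads 50.9 ± 1.78% and 48.2 ± 1.77%. The ratio of Myh6 to Myh7 was 1.42, 1.48, 1.28 and 1.40 in Male and 1.62, 1.43, 1.34 and 1.47 in Female libraries on exon length, and averaged 1.43 ± 0.104. On principal length it averaged 1.08 ± 0.0779. Female replicate 1 had the highest and Male replicate 3 the lowest ratio, and the sexes overlapped.

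The closeness of these genes in sequence limits that ratio. The coding sequences of Myh6 and Myh7 in GENCODE M21 were 91.8% identical over 5799 aligned bases. They shared 26 identical runs of at least 50 bases, the longest of 245, which covered 45.5% of the Myh6 coding sequence. Reads from such runs can match both genes, and no source used here says how such reads were counted, so the split of reads between Myh6 and Myh7 is uncertain. The other 8 pairs compared were 65.9% to 78.9% identical, and their longest identical run was 33 bases. Exons of Myh7 also overlap 463 bases of Mhrt, a long non-coding RNA on the opposite strand with 95 to 307 counts per library. Trpc4ap overlaps 37 exon bases of Myh7b and Pth1r 95 exon bases of Myl3, both on the opposite strand. The strand setting of the counting is not given, so reads in these overlaps cannot be told apart.

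Among the regulatory light chains, Myl7 held 80.5 ± 2.45% of the summed RPKM on exon length (SD, n = 8), Myl2 9.70 ± 1.53% and Myl9 9.77 ± 0.943%. On principal length Myl7 held 72.0 ± 3.36%, Myl2 19.0 ± 2.68% and Myl9 8.99 ± 0.721%. The ratio of the atrial Myl7 to the ventricular Myl2 was 8.32, 11.4, 6.41 and 8.18 in Male and 8.74, 9.53, 9.05 and 6.57 in Female libraries. It was highest in Male replicate 2 and lowest in Male replicate 3, and Female replicate 4 was close to the lowest. Beside it, 8 atrial and sinus venosus markers summed to 532, 783, 483 and 587 CPM in Male and 630, 594, 538 and 492 CPM in Female libraries. For 7 ventricular markers the sums were 650, 755, 648 and 669 CPM in Male and 609, 632, 634 and 631 CPM in Female libraries. Both sums were highest in Male replicate 2, while the mean log2 CPM of the ventricular markers was lowest there. The part of chamber proportions in the ratio was not tested. The ratio of Myl9 to Myl7 averaged 0.122 ± 0.0156 and was 0.146 in Female replicate 4, against 0.111 to 0.115 in the other 3 Female libraries.

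Myl4 and Myl3 kept the steadiest ratio of the 6 examined. On exon length it was 0.878, 0.764, 0.817 and 0.836 in Male and 0.923, 0.902, 0.866 and 0.858 in Female libraries, with an SD of 0.086 on the log2 scale over the 8 libraries. The direction turned with the length used: the ratio averaged 0.856 ± 0.050 on exon length and 1.93 ± 0.113 on principal length. Myl4 held 42.7 ± 1.34% of the essential light chain RPKM on exon length and 62.1 ± 1.29% on principal length, and Myl3 held 49.97 ± 1.67% and 32.3 ± 1.38%. The ratio of Myl1 to Myl3 was 0.170, 0.0976, 0.162 and 0.157 in Male and 0.125, 0.157, 0.140 and 0.173 in Female libraries. It was lowest in Male replicate 2, and its SD on the log2 scale was 0.28, close to the 0.27 of Myl7 to Myl2; without that library the SDs were 0.17 and 0.22.

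**Figure D3:**
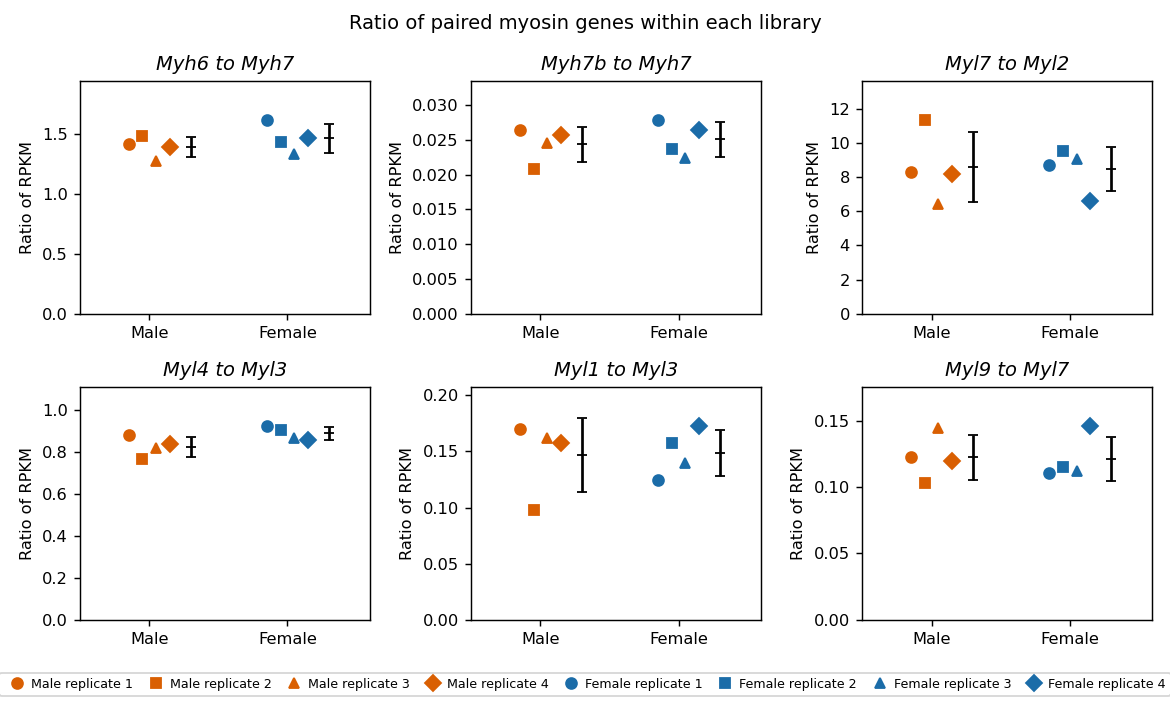
Ratio of RPKM on exon length between paired myosin genes within each library, Male left and Female right, with the mean and SD of each sex as a bar. The sexes overlap in all 6 panels, and Male replicate 2 (square) is at an extreme in 5 of them.

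None of the 6 ratios differed between the sexes beyond the spread of libraries. On the log2 scale the Male mean minus the Female mean was -0.072 for Myh6 to Myh7 (exact 2-sided permutation p = 0.371), -0.044 for Myh7b to Myh7 (p = 0.771), 0.00025 for Myl7 to Myl2 (p = 1.0), -0.11 for Myl4 to Myl3 (p = 0.0857), -0.040 for Myl1 to Myl3 (p = 0.8286) and 0.013 for Myl9 to Myl7 (p = 0.943). After Benjamini-Hochberg adjustment over the 6 ratios the smallest p was 0.514, by the same exact test. With 4 libraries against 4 the smallest p the test can give is 0.0286. These values do not show that the ratios are equal in the sexes.

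No member was called in the comparison of Male with Female hearts: 0 of 10 had an adjusted p below 0.05 in edgeR's quasi-likelihood test, against 0.0366% of the 16377 genes tested. At an unadjusted p below 0.05 there were 3 of 10 members, the 3 heavy chains, against 2.24% of all genes tested. Of the 10 members, 9 had a fold change above 0, against 52.9% of all genes, with a median log2 fold change of 0.23, against 0.011. The 10 genes covary across libraries (below), so their counts are not 10 separate observations. Without Male replicate 2 the count above 0 was 7 of 10, and the median was 0.087. DESeq2 and limma-voom also called 0 of the 10 members.

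Myh7b, at 136 ± 16.1 CPM in Male and 102 ± 3.99 CPM in Female libraries (SD, n = 4 each), was higher by 0.41 ± 0.10 (SE) on the log2 scale in Male libraries. In edgeR its p was 0.00226 unadjusted, and the adjusted p was 0.9995. It was the only member whose sexes did not overlap, higher in Male, where 1.14% of all genes tested did the same (2.25% in either direction). Its adjusted p was 0.0782 in the edgeR fit that took the length trend of the libraries (below) as covariate, and 0.332 to 1.00 in the other alternative fits. Myh7 averaged 7289 ± 1213 CPM in Male and 5313 ± 700 CPM in Female libraries, a log2 fold change of 0.46 ± 0.16, and 3 of 4 Male libraries lay above the highest Female one. Myh6 averaged 7562 ± 1692 CPM in Male and 5715 ± 402 CPM in Female libraries, a log2 fold change of 0.40 ± 0.17, again with 3 of 4 Male libraries above the highest Female one. Both had an adjusted edgeR p of 0.9995. Without Male replicate 2 the log2 fold change was 0.39 for Myh7b, 0.35 for Myh7 and 0.26 for Myh6. With the mean log2 CPM of the 11 cardiomyocyte markers as a covariate it was 0.34 for Myh7b, 0.22 for Myh7 and 0.19 for Myh6, and 1 of the 10 members, Myh7b, kept an unadjusted p below 0.05.

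The light chains and the kinase had smaller differences, and all had an adjusted edgeR p of 0.9995. The log2 fold change, Male over Female, was 0.24 ± 0.23 for Myl3 (SE), 0.23 ± 0.28 for Myl7, 0.22 ± 0.19 for Myl9, 0.19 ± 0.14 for Myl2, 0.15 ± 0.11 for Myl1, 0.11 ± 0.21 for Myl4 and -0.054 ± 0.18 for Mylk3. The values of 4 of these genes turned sign without Male replicate 2, to -0.021 for Myl3, -0.078 for Myl7, -0.097 for Myl4 and 0.093 for Mylk3. With the cardiomyocyte covariate, 5 of the 10 members had a fold change above 0, and the median was -0.0093. That marker sum was 27126 to 35121 CPM in Male and 26023 to 31567 CPM in Female libraries, so that the sexes overlapped in it.

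Across the 8 libraries Myl3, Myl4 and Myl7 correlated closely with each other, and Mylk3 correlated negatively with all 3. Myl9 had r of 0.958, 0.906 and 0.955 with these light chains (rho = 0.833, 0.714 and 0.833). Without Male replicate 2 its r was 0.837, 0.746 and 0.884. For Myl2 the r with them was 0.937, 0.850 and 0.881 (rho = 0.857, 0.619 and 0.738). Mylk3 with Myl9 had r = -0.824 and rho = -0.571. Over the 45 pairs of members, the median Pearson r of log2 CPM was 0.75, and 0.54 without Male replicate 2. Of the 45, 36 were above 0, and the 9 below 0 were the pairs with Mylk3. By exact pairing permutation with adjustment over the 45 pairs, 27 had an adjusted p of r below 0.05 and 20 had an adjusted p of rho below 0.05. All pairs share the same libraries, so they are not independent.

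**Figure D4:**
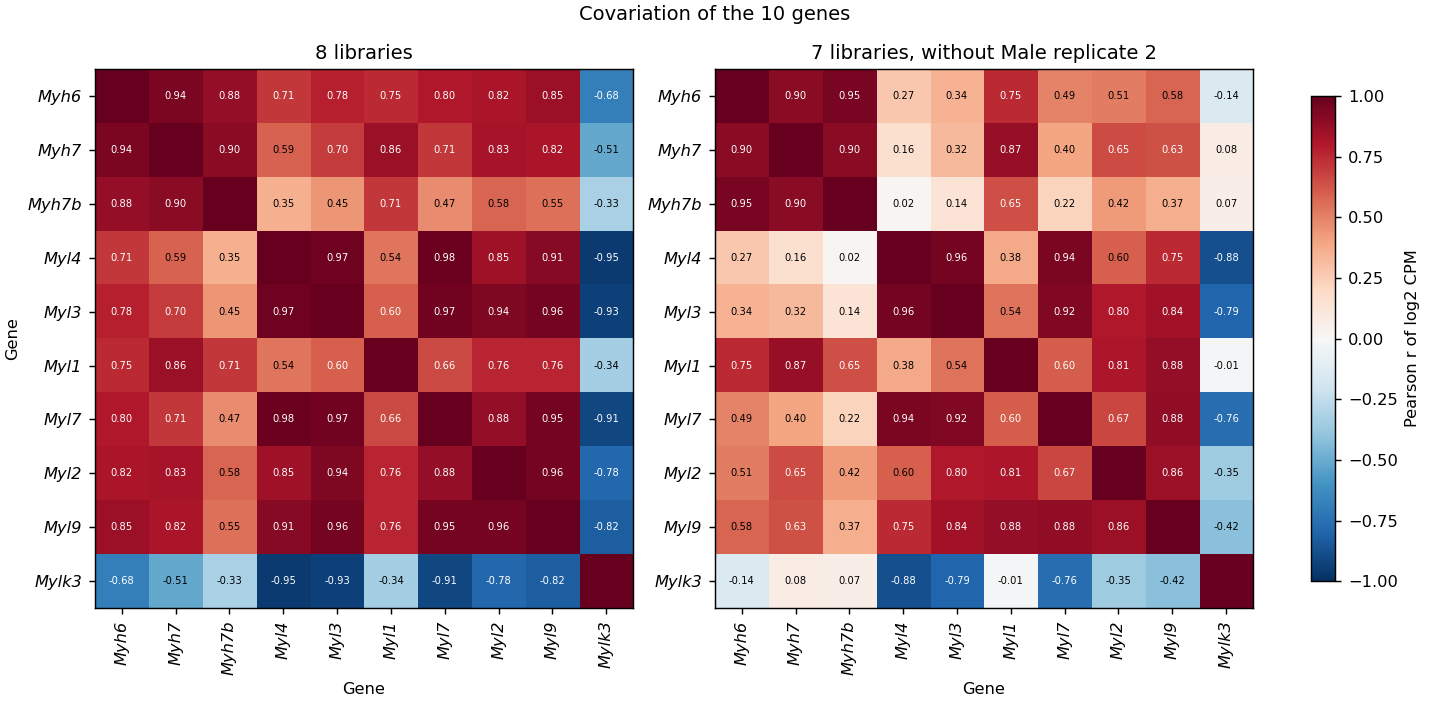
Pearson r of log2 CPM between the 10 genes over 8 libraries (left) and over 7 libraries without Male replicate 2 (right), from blue (negative) to red (positive). The light chains Myl4, Myl3 and Myl7 stay above 0.9 with each other in both panels, while their correlations with the heavy chains are lower without that library.

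The closest pair was Myl4 and Myl7, with r = 0.978 and rho = 0.976 (exact pairing permutation, adjusted p = 0.00558 for r and 0.0171 for rho). It stayed at r = 0.891 without the 2 farthest libraries and at 0.945 without Male replicate 2. The 2 farthest are those farthest from the median of 1 gene of the pair or, further below, of the library measure. They therefore differ between relations and need not include Male replicate 2. Myl3 with Myl4 had r = 0.973 and rho = 0.905 (adjusted permutation p = 0.00574 and 0.0342), with r = 0.957 without Male replicate 2. Myl3 with Myl7 had r = 0.967 and rho = 0.952 (adjusted permutation p = 0.00558 and 0.0171), with 0.925 without it. Myl2, the ventricular counterpart of Myl7, had r = 0.881 with Myl7 (rho = 0.738, adjusted permutation p = 0.0181 and 0.0938) and 0.670 without Male replicate 2. Myl2 was closest to Myl9, at r = 0.955 and rho = 0.881 (adjusted permutation p = 0.00574 and 0.0362), and 0.859 without Male replicate 2.

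The heavy chains formed a second group. Myh6 and Myh7 had r = 0.944 and rho = 0.905 (exact pairing permutation, adjusted p = 0.00558 and 0.0342), 0.856 without the 2 farthest libraries and 0.904 without Male replicate 2. Reads that match both genes can add to this correlation, and that part was not tested. Myh7 with Myh7b, which share no identical run of 50 bases, had r = 0.899 and rho = 0.833 (adjusted permutation p = 0.00625 and 0.0407), 0.922 without the 2 farthest and 0.905 without Male replicate 2. Myh6 with Myh7b had r = 0.881 and rho = 0.810 (adjusted permutation p = 0.0181 and 0.0490), and 0.945 without Male replicate 2. Of the 18 pairs of a heavy with a light chain, 17 had a lower r without Male replicate 2, where r ran from 0.0182 to 0.869. The drop was large for Myl4: Myh6 with Myl4 had r = 0.707 (rho = 0.548, adjusted permutation p = 0.0742 and 0.226) and 0.272 without it, and Myh7 with Myl4 had r = 0.594 (rho = 0.381, adjusted permutation p = 0.147 and 0.415) and 0.158 without it. It was smaller for Myh7 with Myl2, at r = 0.826 (rho = 0.833, adjusted permutation p = 0.0237 and 0.0407) and 0.649 without it, and for Myh6 with Myl9 the rank correlation was 0.929 over 8 libraries (r = 0.852, adjusted permutation p = 0.0251 for rho and 0.0259 for r) and 0.893 without it. For Myh7b the pairs depended on the libraries kept: with Myl2 r was 0.582 (rho = 0.524, adjusted permutation p = 0.147 and 0.239), 0.937 without the 2 farthest libraries and 0.423 without Male replicate 2. Those 2 were Male replicates 1 and 4, the farthest from the median of Myh7b, and Male replicate 2 was kept.

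Myl1 correlated with Myh7 and with Myl9. With Myh7 it had r = 0.862 and rho = 0.810 (exact pairing permutation, adjusted p = 0.0181 and 0.0490), and 0.869 without Male replicate 2. With Myl9 it had r = 0.761 and rho = 0.952 (adjusted permutation p = 0.0373 and 0.0171), and r = 0.882 without that library. Its r with Myl3, Myl4 and Myl7 was 0.601, 0.536 and 0.662, with adjusted permutation p of 0.147, 0.195 and 0.0922.

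Mylk3 was most opposed to Myl4, with r = -0.954 and rho = -0.881 (exact pairing permutation, adjusted p = 0.00558 and 0.0362). That value was -0.841 without the 2 farthest libraries and -0.882 without Male replicate 2. With Myl2, which Mylk3 phosphorylates, r was -0.783 (rho = -0.548, adjusted permutation p = 0.0474 and 0.226) and -0.353 without Male replicate 2. With Myh7 it was -0.515 (rho = -0.333, adjusted permutation p = 0.219 and 0.470) and turned to 0.0765 without that library. Without Male replicate 2 its r was -0.790 with Myl3, -0.759 with Myl7, -0.416 with Myl9 and -0.00825 with Myl1.

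Myl3, Myl4, Myl7 and Mylk3 also tracked a property of the whole library, more closely than the other members did. For each library a length trend was taken, the slope of its log2 CPM deviations on log2 gene length over all tested genes, negative where long genes were low. It was 0.032, -0.088, 0.043 and -0.006 in Male and -0.024, -0.002, -0.030 and 0.075 in Female libraries, lowest in Male replicate 2 and highest in Female replicate 4. Myl4 had r = -0.985 with it (rho = -0.929, exact pairing permutation, adjusted over 90 relations p = 0.00223 and 0.0287), and -0.954 without the 2 farthest libraries. Mylk3 had r = 0.961 (rho = 0.976, adjusted permutation p = 0.00134 and 0.00714), and 0.934 without the 2 farthest. Myl9 had r = -0.837 (rho = -0.643, adjusted permutation p = 0.0368 and 0.240), and -0.376 without the 2 farthest. For Myl2 r was -0.800 (rho = -0.643, adjusted permutation p = 0.0514 and 0.240), and -0.244 without the 2 farthest. The heavy chains did not track it detectably: r was -0.623 for Myh6 (rho = -0.524), -0.508 for Myh7 (rho = -0.429) and -0.278 for Myh7b (rho of 0), with adjusted permutation p of r of 0.174, 0.285 and 0.576.

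**Figure D5:**
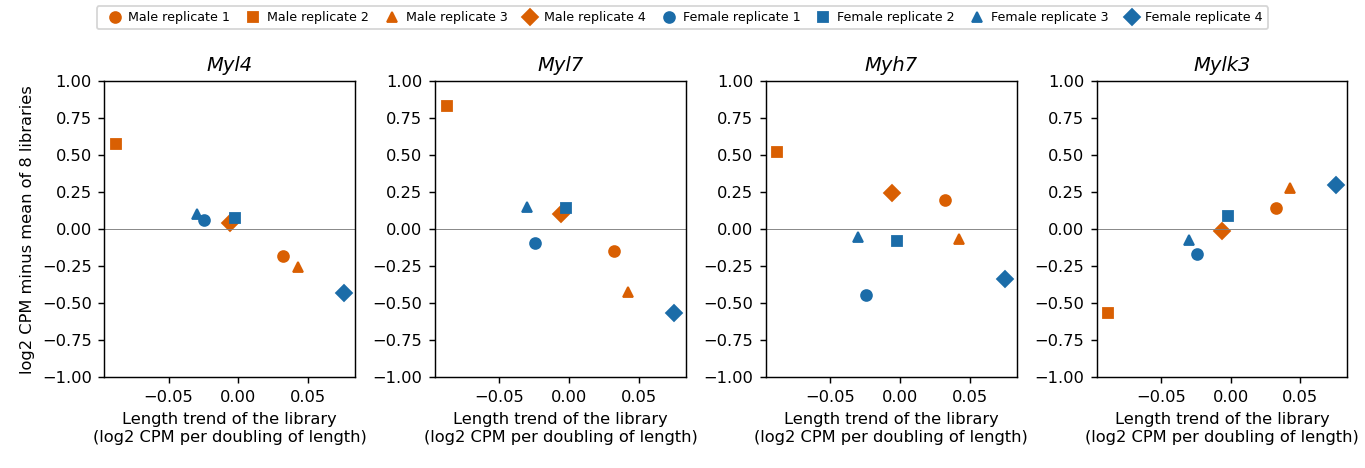
log2 CPM of Myl4, Myl7, Myh7 and Mylk3, each minus its mean over 8 libraries, against the length trend of the library (slope of log2 CPM deviation on log2 gene length). Points are libraries. Myl4 falls and Mylk3 rises with the trend, at r of -0.985 and 0.961, and Myh7 at -0.508 is scattered.

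Other measures of the libraries were related to the same genes. Of the 90 relations between a member and a library measure, 30 had an adjusted permutation p of r below 0.05, 24 of them with Myl3, Myl4, Myl7 or Mylk3, and 10 had an adjusted p of rho below 0.05. The mitochondrial share of counts was 1.41%, 0.707%, 1.58% and 1.30% in Male and 0.999%, 1.31%, 1.05% and 1.72% in Female libraries. Mylk3 had r = 0.968 with it (rho of 1.0, exact pairing permutation, adjusted p = 0.00112 and 0.00223), and 0.970 without the 2 farthest. Myl4 had r = -0.948 (rho = -0.881, adjusted permutation p = 0.00255 and 0.0543), and -0.841 without the 2 farthest. Mylk3 had r = 0.952 (rho = 0.976, adjusted permutation p = 0.00134 and 0.00714) with the mean log2 CPM of 9 endocardial and endothelial markers, whose sum was 618 to 788 CPM in Male and 669 to 828 CPM in Female libraries; it was 0.954 without the 2 farthest. Myl7 had r = 0.978 (rho = 0.976, adjusted permutation p = 0.00134 and 0.00714) with the mean of skeletal muscle genes, and 0.957 without the 2 farthest. That mean covers only the genes of a list of 7 that were abundant enough to be tested. All 7 genes of the list summed to only 16.3 to 35.2 CPM in Male and 16.02 to 25.8 CPM in Female libraries, 1 of them had 1 CPM in every library, and none was at 0 in all. Myh7 and Myl1 had the highest r with the 11 cardiomyocyte markers, at r = 0.854 (rho = 0.714, adjusted permutation p = 0.0324 and 0.179) and r = 0.877 (rho = 0.810, adjusted permutation p = 0.0166 and 0.0933), and 0.558 and 0.719 without the 2 farthest. For Myh6, Myl2, Myl9 and Myh7b r was 0.756, 0.749, 0.725 and 0.718 (rho = 0.786, 0.690, 0.786 and 0.690). The adjusted permutation p of these r was 0.0721 to 0.0935. For Myl3, Myl4, Myl7 and Mylk3 r ran from -0.260 to 0.539. The 6 smooth muscle markers had r = 0.914 with Myl9 (rho = 0.857, adjusted permutation p = 0.0160 and 0.0689), 0.906 with Myl7 (rho = 0.714, p = 0.0166 and 0.179) and 0.864 with Myh6 (rho = 0.833, p = 0.0258 and 0.0728), and 0.855, 0.708 and 0.663 without the 2 farthest. The 8 atrial and sinus venosus markers had r = 0.864 with Myl4, 0.849 with Myl7, 0.846 with Myl3 and -0.863 with Mylk3, with adjusted permutation p of r of 0.0304 to 0.0381 and of rho of 0.0728 to 0.271. Without the 2 farthest libraries these were 0.588, 0.492, 0.522 and -0.507. The 7 ventricular markers had r = 0.807 with Mylk3 (rho = 0.738, adjusted permutation p = 0.0450 and 0.165). That r was 0.362 without the 2 farthest. With the same markers r was -0.728 for Myl4, -0.693 for Myl3, -0.596 for Myl7, -0.507 for Myl9 and -0.494 for Myl2. The adjusted permutation p of these was 0.0794 to 0.295. For Myl1 and the heavy chains r ran from -0.169 to 0.243. In a fit that took the length trend as covariate, the log2 fold change, Male over Female, was 0.034 for Myl4, 0.10 for Myl7, 0.14 for Myl3 and -0.026 for Mylk3. The part of these measures in the covariation of the myosin genes was not tested.

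The genes whose pattern was most like each member's were taken by r of log2 CPM over the 8 libraries, among 13711 tested genes with a named symbol that are no members. For Myh6 these were Ehbp1l1 (r = 0.995), the alpha-actinin gene Actn4 (r = 0.987) and Metap1d (r = 0.984). For Myh7 they were Rrbp1 (r = 0.981), Atp6v0a1 (r = 0.968) and Map1a (r = 0.966), and for Myh7b Nat8l (r = 0.978), Gpd1 (r = 0.948) and Adcy1 (r = 0.941). The genes nearest to Myl1 were Mybphl (r = 0.954), which encodes a myosin-binding protein, Mrpl4 (r = 0.952) and Kxd1 (r = 0.947). Those nearest to Myl7 were Mylpf (r = 0.994), the fast skeletal regulatory light chain, Gamt (r = 0.992) and Dmap1 (r = 0.992). Myl3 lay nearest to Atp5g1, Uqcrq and Rhog (r = 0.997 each), and Myl4 to Cd59a (r = 0.998), Ndufb9 (r = 0.997) and Edf1 (r = 0.997). Atp5g1, Uqcrq and Ndufb9 encode small subunits of the mitochondrial respiratory machinery. Myl2 lay nearest to Hist1h2ap (r = 0.988), Abhd14a (r = 0.986) and Timm44 (r = 0.985), and Myl9 to Lsm10 (r = 0.991), Ndufa12 (r = 0.990) and Hrc (r = 0.989). Hist1h2ap averaged only 0.624 CPM, near the 0.5 CPM added before the log, and Gpd1 averaged 2.67 CPM. Nearest to Mylk3 were Lamb1, a laminin chain (r = 0.998), the integrin Itgb1 (r = 0.995) and Hmgxb3 (r = 0.994). Without Male replicate 2 the genes named here had r from 0.936 (Kxd1) to 0.996 (Ehbp1l1) with their member. Their ranks then ran from 1 to 22 (Hmgxb3), so which genes come nearest depends in part on that library.

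How many genes came this close differed between the members. Above r = 0.9 there were 1557 genes for Myl3, 1629 for Myl4, 1264 for Myl7 and 1865 for Mylk3 of the 13711 compared. Myl9 with 716 and Myl2 with 369 lay in between. For the heavy chains there were 98 for Myh6, 73 for Myh7 and 18 for Myh7b, and for Myl1 there were 28. A high r with Myl4 was thus common among genes over the 8 libraries, and these values are descriptions without a test. The counts were not repeated without Male replicate 2.

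Other myosin genes were described from lists of relatives. Of 9 other sarcomeric myosin genes, 1 was abundant enough to be tested, Mylpf, with 55.6, 91.8, 51.4 and 63.4 CPM in Male and 60.3, 65.4, 68.2 and 47.7 CPM in Female libraries. The 7 skeletal and other sarcomeric heavy chains Myh1, Myh2, Myh3, Myh4, Myh8, Myh13 and Myh15 had 114 counts together over the 8 libraries, against 3533874 for Myh6 and Myh7. Of these, Myh3 at 0.0178 RPKM and Myh4 at 0.0116 RPKM were the highest. Myl10 had 0 of 277856671 counts, which allows a level of up to 0.0108 CPM, a limit that covers counting error only.

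Of 8 non-muscle and smooth muscle myosin genes all were tested and 0 were called between the sexes, 5 with a fold change above 0 and a median log2 fold change of 0.015. The essential light chain Myl6 was the highest at 2603 ± 786 RPKM on exon length (SD, n = 8), above Myl3 on that scale. It had 1406, 2863, 1307 and 1680 CPM in Male and 1825, 1757, 1848 and 1164 CPM in Female libraries, with the same extremes as Myl3 and Myl4. The regulatory light chains Myl12a at 157 ± 16.2 RPKM and Myl12b at 51.04 ± 2.55 RPKM followed. Of 11 genes for light chain kinases and the myosin phosphatase, 9 were tested and 0 were called, 6 with a fold change above 0. The highest were the phosphatase inhibitor Ppp1r14b at 367 ± 19.5 RPKM, the kinase Dapk3 at 82.8 ± 26.3 RPKM and the inhibitor Ppp1r14c at 45.2 ± 7.67 RPKM, level with Mylk3 at 45.2 RPKM. Mylk, the smooth muscle kinase, was at 0.936 ± 0.134 RPKM, and Mylk2 and Mylk4 had 20 and 21 counts over the 8 libraries; these 3 genes were named after their values were seen.

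Of 11 genes for thick filament partners and myosin folding, all were tested and 0 were called, 6 with a fold change above 0 and a median log2 fold change of 0.049. Mybpc3, cardiac myosin-binding protein C, was the highest at 454 ± 28.3 RPKM and had 1979, 2086, 1842 and 1934 CPM in Male and 1716, 1943, 1841 and 1787 CPM in Female libraries. These values span a narrower range than those of Myl3, Myl4 or Myl7. The chaperone Hsp90aa1 followed at 376 ± 129 RPKM and the muscle methyltransferase Smyd1, which takes part in myosin assembly, at 111 ± 9.09 RPKM. Ttn, the giant ruler of the thick filament, was the only gene of this list with an unadjusted edgeR p below 0.05 and was named after its values were seen. It averaged 1194 ± 231 CPM in Male and 637 ± 158 CPM in Female libraries. In edgeR its p was 0.00191 unadjusted, and the adjusted p was 0.9995.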

How the data were processed

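Heart RNA was taken up in Trizol, and an Illumina TruSeq RNA kit was used for the libraries, per the labels' protocols. The deposited whole-number counts per gene come from reads trimmed, aligned and counted with Trimmomatic 0.36, STAR 2.5.2b and Subread 1.5.2 (featureCounts) on GRCm38 (mm10), per the submitters' processing notes. Strand setting, annotation release and handling of multi-mapping reads were not given in the sources used here. A second deposited table holds a normalized signal, which the authors made by dividing the counts by 1 factor per library, as tested on the values; it lists 16460 genes and served as an alternative. All 8 per-library tables had the same values as the series count table. No library repeated another (chi-square per gene 7.93 to 192 between replicates).

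Members and lists were chosen with earlier results of these data known. CPM were scaled by TMM factors (edgeR 4.0.16, R 4.3.3) and RPKM divided them by length in kilobases, either that in the deposited table or that of the principal transcript in GENCODE M21, a length chosen after seeing the data. Positions are those of the deposited table; 8 of the 10 had the same start and end in GENCODE M21. The sexes were compared with edgeR's robust quasi-likelihood test (filterByExpr, minimum count 10; Benjamini-Hochberg over 16377 genes; adjusted p below 0.05 called). Ratios were compared by exact permutation over 70 divisions of the libraries, and correlations by all 40320 pairings, on log2 of CPM plus 0.5 (Python 3.11.15, numpy 2.4.6, scipy 1.17.1). Coding sequences were aligned with Biopython 1.88. The scripts were tested on simulated data.

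Genes named are the 10 members; of each related list every called gene and the 3 with the highest mean RPKM; and per member the 3 genes with the highest r. Alternatives were DESeq2 1.42.0, limma-voom (limma 3.58.1), limma on log2 of the normalized signal plus 1, RLE factors, library size alone, no filter, at least 1 CPM in 4 libraries, a threshold of 0.1, a fit that was not robust, a replicate block, covariates for foregut markers, cardiomyocyte markers or the length trend, Spearman's rho, residuals from sex means, and leaving out each library.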

Additional observations from a re-analysis of the deposited data

Results flagged for a closer look

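In groups of 4 libraries of 1 sex, 32 sets of values (10 levels and 6 ratios in each sex) were searched for a library far from the other 3 by Dixon's criterion, of which chance flags about 1 in 20. There were 3. Myh7b had 111.9 CPM in Male replicate 3, against 142.1 to 144.9 CPM in the other 3 Male libraries; Female libraries had 98.0 to 107.0 CPM. Myl4 had 3913 CPM in Female replicate 4, against 5511 to 5655 CPM in the other 3 Female libraries. The ratio of Myl9 to Myl7 was 0.146 in Female replicate 4, against 0.111 to 0.115 in the other 3. Female replicate 4 also had the highest length trend and the highest mitochondrial share of the 8 libraries, and the part of these in the last pair of values was not tested.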

How the results depend on the processing

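No member was called under any alternative run. The replicate block left 5 genes called in place of 6 and 0 members. In their deviations from the sex means, the same-numbered pairs of libraries had correlations of -0.47, -0.021, -0.38 and 0.093. What the numbers mark is not labelled, so whether they pair the libraries is not known. By the exact sign-flip test of those pairs, whose smallest p is 0.125, no ratio passed (lowest p 0.125, for Myl4 to Myl3). With the length trend as a covariate 13 genes were called. With the foregut covariate the log2 fold change was -0.24 for Mylk3 and 0.23 for Myl4. Leaving out each library in turn, the Male minus Female log2 difference ran from -0.097 to 0.030 for Myh7b to Myh7, from -0.15 to 0.13 for Myl7 to Myl2, from -0.12 to 0.14 for Myl1 to Myl3 and from -0.070 to 0.11 for Myl9 to Myl7, so these signs are not stable; Myh6 to Myh7 and Myl4 to Myl3 kept theirs. In the same way the log2 fold change ran from -0.021 to 0.35 for Myl3, from -0.097 to 0.21 for Myl4, from -0.078 to 0.39 for Myl7 and from -0.16 to 0.093 for Mylk3. With the cardiomyocyte covariate the value was 0.19 for Myh6 and 0.22 for Myh7, and 6 members turned sign, to -0.022 for Myl1, -0.050 for Myl3, -0.099 for Myl4, -0.16 for Myl7, -0.094 for Myl9 and 0.025 for Mylk3; the cause was not tested. The median r of the members was 0.51 with library size alone, 0.77 with RLE factors, 0.74 on residuals from sex means and 0.67 as Spearman's rho, and ran from 0.54 to 0.82 without 1 library. Depth was not limiting for the members, which had at least 2038 counts in every library; 4 libraries per sex limit the precision of the comparison.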
